A study of Drosophila melanogaster with 26 samples.

Results

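The *mdg1* clade is a group of related LTR retrotransposon families, and 7 of its families are described here at the level of single insertions: *mdg1*, *412*, *blood*, *Stalker*, *Stalker2*, *Stalker4* and *Tabor*. The families were chosen with earlier results of these data known. Members were then taken by name, as every annotated insertion whose row carries 1 of these family names, a rule that uses no measured value. This gave 7968 insertions of 51750 transposon insertions in all, namely 1019 of *mdg1* (FBgn0002697), 1110 of *412* (FBgn0000006), 655 of *blood* (FBgn0000199), 1496 of *Stalker* (FBgn0003519), 1446 of *Stalker2* (FBgn0063455), 1543 of *Stalker4* (FBgn0063897) and 699 of *Tabor* (FBgn0045970). Where they lie in the genome was not analysed here. How reads that match several copies were assigned is not given in the sources used here, so the counts of near-identical copies of a family are uncertain singly, and less so as a sum.

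LTR retrotransposons are copied through an RNA intermediate that is transcribed from a long terminal repeat and carries the *gag* and *pol* genes. In the fly ovary such RNA is held down by piRNAs, small RNAs bound to Piwi-class proteins, which silence transposons at the chromatin level in the nucleus and cut their transcripts in the cytoplasm. Germline cells run both arms of this pathway, and the somatic follicle cells around them run the nuclear arm. The NSL complex is a chromatin complex of active promoters that contains the acetyltransferase MOF, and the study asked whether the germline needs it to keep transposons silent. *blood* takes its name from an eye colour allele of the *white* gene in which it was found.

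Total RNA of whole ovaries was sequenced in 4 groups of 3 libraries. In every group a hairpin was driven by *nanos*-GAL4, a driver of the female germline, so the controls carried the driver and a hairpin as well. The hairpin targeted *white*, an eye pigment transporter gene (stock 35573), *nsl1* (58328), *nsl2* (58162) or *nsl3* (108002 by the label, while the study's methods name another line for it), and the F1 females were given yeast for 3 to 5 days. Each knockdown comes from a single hairpin line, so a difference between fly lines, in which copies of a family they carry for example, cannot be told apart from the knockdown. Whole ovaries were read, and fewer cells of a type and less RNA per cell cannot be told apart in such samples. The study reports atrophied ovaries in NSL1 and NSL3 RNAi and ovaries of normal form in NSL2 RNAi. For NSL1 and NSL3 RNAi its methods name virgin controls, while the *white* RNAi libraries here match the nonvirgin label. In comparisons with NSL1 or NSL3 RNAi, a difference in ovary form cannot be told apart from a change in the members.

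The 12 libraries held 12482452 to 23021900 assigned reads, of which 4619 to 6761 lay in transposon insertions in *white* RNAi and 22057 to 90901 in the knockdowns. Library 2 of NSL3 RNAi stood apart from the other 2 of its group, with a mean chi-square per row of 125 and 69.2 against 26.5 between libraries 1 and 3. NSL3 RNAi results are given with it, and some of them also without it. Of the targeted genes, *dgt1* (*nsl2*) was at 1804 ± 144 normalized reads in *white* RNAi and 1241 ± 99.3 in NSL2 RNAi (SD, n = 3; log2 fold change -0.54, SE 0.09, limma adjusted p = 0.00360). *wah* (*nsl1*) was at 6695 ± 277 and 3633 ± 174 in NSL1 RNAi (-0.88, SE 0.06, adjusted p = 6.56e-07), and *Rcd1* (*nsl3*) at 4874 ± 271 and 2580.0 ± 306 in NSL3 RNAi (-0.92, SE 0.11, adjusted p = 0.000334). All were lower, but by less than the 2-fold that a call needs.

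Very few members were transcribed to a measurable level. Of the 7968 insertions, 425 had any read in the 12 libraries, 116 had at least 10 reads and 25 at least 100. *mdg1* had the most insertions with a read (132 of 1019) and *Stalker4* the fewest (18 of 1543). In *white* RNAi all members together had 96, 81 and 84 reads in the 3 libraries. They had 1124, 1869 and 1275 reads in NSL1 RNAi, 1327, 1776 and 1393 in NSL2 RNAi, and 581, 417 and 407 in NSL3 RNAi. The ranges do not overlap between *white* RNAi and any knockdown. Insertions with at least 3 reads over a group numbered 13 in *white* RNAi, 163 in NSL1 RNAi, 95 in NSL2 RNAi and 74 in NSL3 RNAi. Members made up 1.24 to 2.08% of all transposon reads in *white* RNAi against 1.68 to 2.06% in NSL1 RNAi, 3.18 to 3.91% in NSL2 RNAi and 1.08 to 2.63% in NSL3 RNAi. Their share of transposon reads was thus higher in all 3 NSL2 RNAi libraries than in any other library. Most of these NSL2 RNAi reads were of *blood* (735, 1094 and 739). With *blood* left out, the share of the other families in NSL2 RNAi overlapped with that in *white* RNAi.

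**Figure D1:**
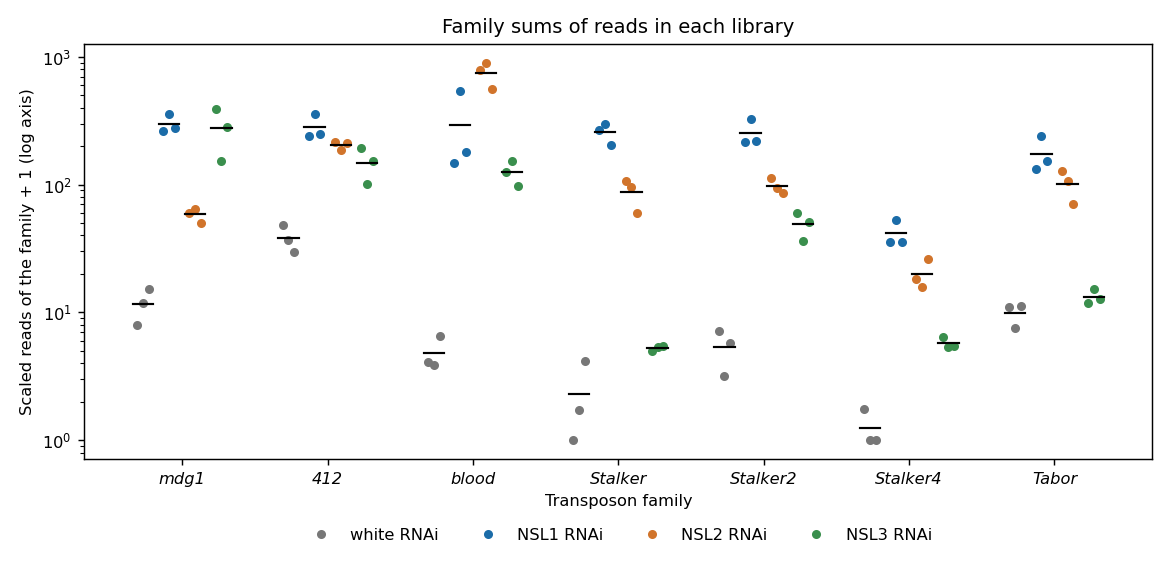
Reads of each family, summed over its insertions and divided by 1 size factor per library set over all 12 libraries, plus 1, on a log axis. Points are libraries (n = 3 per group) and bars are group means. *blood* was highest in NSL2 RNAi (562 to 894 scaled reads), while *Stalker* and *Stalker4* in NSL3 RNAi stayed at 4.04 to 4.43 and 4.41 to 5.38 scaled reads.

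When insertions were summed by family, all 7 families rose in NSL1 RNAi and in NSL2 RNAi, and 4 of the 5 that could be tested rose in NSL3 RNAi. A change was called with limma on log2(value + 1), at an adjusted p below 0.05 over all features tested and a fold change above 2, for features with a mean of at least 10 normalized reads. On this scale the change of families with few reads is understated. A rise was common: in NSL1 RNAi 33.5% of all features and 99.1% of all transposon families rose, in NSL2 RNAi 10.2% and 83.6%, and in NSL3 RNAi 31% and 92.3%. The members' counts are therefore near the background of transposon families. In *white* RNAi only 2 families in the NSL1 and NSL3 tables (*412* and *mdg1*) and 3 in the NSL2 table (with *Tabor*) reached the minimum mean, so the others were tested only because the knockdown was high. *Stalker* and *Stalker4* were below the minimum in the NSL3 table. The families differed in how far each rose in which knockdown.

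**Figure D2:**
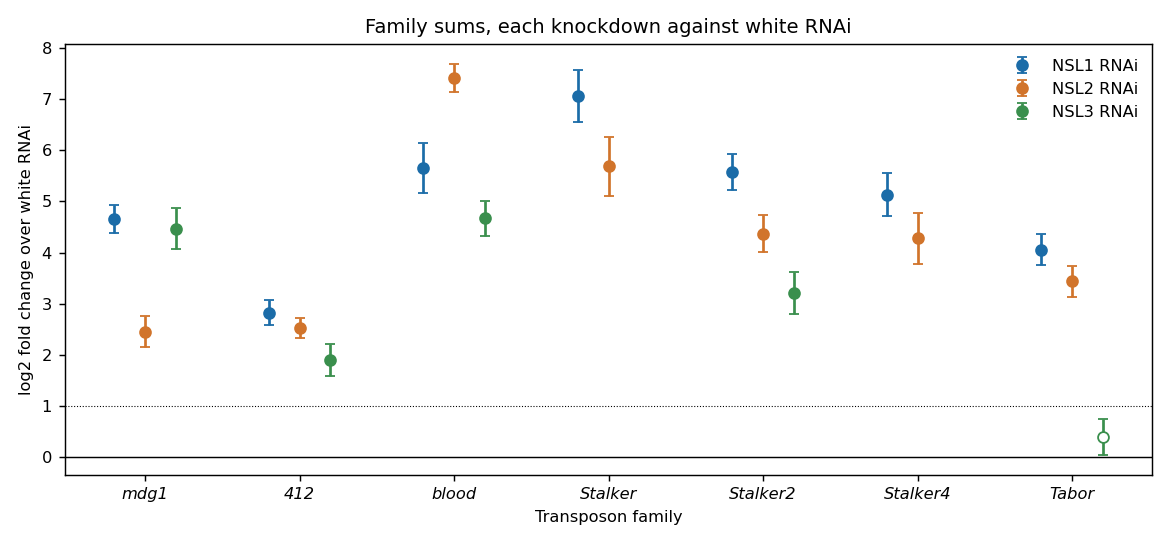
The log2 fold change of each family sum over *white* RNAi (points) with its standard error (bars) in the 3 knockdowns, n = 3 per group. Filled points were called, the open point (*Tabor* in NSL3 RNAi) was not, the dotted line marks a 2-fold rise, and *Stalker* and *Stalker4* were not tested in NSL3 RNAi. *blood* in NSL2 RNAi (7.41) and *Stalker* in NSL1 RNAi (7.06) had the largest fitted changes.

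*blood* went from near silence to the most abundant of the families in NSL2 RNAi. It had 4, 4 and 7 reads in *white* RNAi against 735, 1094 and 739 in NSL2 RNAi. In normalized reads this is 4.57 ± 1.78 and 939 ± 219.9 (SD, n = 3), a log2 fold change of 7.41 (SE 0.28, adjusted p = 5.51e-06), which ranked 2 among 110 families tested. NSL1 RNAi had 127, 466 and 176 *blood* reads, and the log2 fold change was 5.66 (SE 0.48, adjusted p = 4.64e-06). NSL3 RNAi had 92, 137 and 65 reads (4.67, SE 0.35, adjusted p = 3.68e-05, and 4.48 without library 2 of NSL3 RNAi). Library 2 of NSL1 RNAi was far above the other 2 of its group, while the NSL2 RNAi libraries lay close together. In each comparison with *white* RNAi *blood* passed the minimum mean only through the knockdown, so these p-values are no support for a rise.

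The *blood* reads came mainly from a handful of insertions. In NSL2 RNAi, 43 of the 655 insertions had a read and 2 of them held 50% of the family's reads. Insertion 108 had 0, 0 and 1 reads in *white* RNAi, 25, 152 and 31 in NSL1 RNAi, 256, 398 and 260 in NSL2 RNAi, and 25, 28 and 15 in NSL3 RNAi. It was the leading insertion in NSL1 and NSL2 RNAi, with 27.0% (95% Wilson interval 24.0 to 30.3%) and 35.6% (33.8 to 37.5%) of the family's reads. In NSL2 RNAi it rose the most of all member insertions tested there, with a log2 fold change of 8.03 (SE 0.36, adjusted p = 9.06e-06) and a ratio of 1092 to the single read in *white* RNAi (95% counting interval 196 to 43180.0). Since insertion 108 passed the minimum mean only through the knockdown, this p-value is no support for the rise. Insertion 107 had 0, 1 and 1 reads in *white* RNAi, 40, 113 and 33 in NSL1 RNAi, 226, 283 and 187 in NSL2 RNAi, and 14, 26 and 13 in NSL3 RNAi. Both insertions thus rose in every knockdown, most in NSL2 RNAi. Insertion 2 had 0, 0 and 2 reads in *white* RNAi and 16, 38 and 14 in NSL3 RNAi, where it tied with insertion 108 for the lead at 68 reads each.

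Other *blood* insertions had few or no reads in at least 1 knockdown. Insertion 5 had 0 reads in all *white* RNAi libraries, 15, 17 and 17 in NSL1 RNAi, 81, 144 and 53 in NSL2 RNAi, and 0 in all NSL3 RNAi libraries. With a floor of 3 reads over a group at 0, it was at least 22.7-fold higher in NSL1 RNAi and at least 111-fold higher in NSL2 RNAi than in *white* RNAi. Insertion 224 had 1, 0 and 0 reads in *white* RNAi, 18, 78 and 40 in NSL1 RNAi, 40, 37 and 36 in NSL2 RNAi, and 0, 1 and 1 in NSL3 RNAi. Neither was detectable above *white* RNAi in NSL3 RNAi at this depth. Insertion 381 had 0 reads in *white* RNAi, 1, 5 and 2 in NSL1 RNAi, 15, 39 and 58 in NSL2 RNAi, and 7, 9 and 1 in NSL3 RNAi. It was thus read mainly in NSL2 RNAi. Without insertion 108 the *blood* family had a log2 fold change of 6.85 in NSL2 RNAi (limma adjusted p = 5.80e-06). The remaining insertions also passed the minimum mean only through the knockdown, so this value is a description and its p-value no support.

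*mdg1* followed another order, high in NSL1 and NSL3 RNAi and lower in NSL2 RNAi. It had 9, 15 and 18 reads in *white* RNAi, 226, 308 and 268 in NSL1 RNAi, 55, 78 and 65 in NSL2 RNAi, and 288, 137 and 192 in NSL3 RNAi. The log2 fold change was 4.65 (SE 0.28, adjusted p = 4.54e-07) in NSL1 RNAi, 2.45 (SE 0.30, adjusted p = 0.00116) in NSL2 RNAi and 4.47 (SE 0.40, adjusted p = 8.54e-05) in NSL3 RNAi. Without library 2 of NSL3 RNAi, which was the lowest of the 3, the last value was 4.81 (SE 0.34, adjusted p = 6.71e-06).

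The *mdg1* insertions behind these sums were not alike. Insertion 982 had 0, 1 and 0 reads in *white* RNAi, 29, 14 and 35 in NSL1 RNAi, 1, 2 and 1 in NSL2 RNAi, and 84, 47 and 56 in NSL3 RNAi. It led the family in NSL3 RNAi with 30.3% of its reads (26.8 to 34.0%). Its log2 fold change there was 6.03 (SE 0.44, adjusted p = 3.56e-05), the largest of the member insertions tested, and its ratio to the single *white* RNAi read was 309.1 (95% counting interval 54.8 to 12270.0). As insertion 982 passed the minimum mean only through the knockdown, the p-value is no support. Insertion 1010 was lowest among the knockdowns in NSL3 RNAi, where 982 was highest, with 0, 2 and 0 reads in *white* RNAi, 47, 88 and 35 in NSL1 RNAi, 15, 22 and 26 in NSL2 RNAi, and 2, 3 and 0 in NSL3 RNAi. It led the family in NSL1 RNAi (21.2%, 18.5 to 24.2%) and in NSL2 RNAi (31.8%, 25.7 to 38.6%). Insertion 984 had 0, 1 and 1 reads in *white* RNAi, 22, 10 and 19 in NSL1 RNAi, 2, 2 and 1 in NSL2 RNAi, and 24, 9 and 12 in NSL3 RNAi. It was thus read at a like level in NSL1 and NSL3 RNAi and nearly unread in NSL2 RNAi. *mdg1* reads were also spread over more insertions than those of the other families in NSL1 RNAi: 6 were needed for 50% of its reads in NSL1 RNAi and 4 each in NSL2 and NSL3 RNAi, against 1 to 4 for the other families in NSL1 RNAi.

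*412* was the most abundant of the 7 families in *white* RNAi and had the smallest called change in NSL1 and NSL3 RNAi. It had 61, 49 and 36 reads in *white* RNAi, 208, 308 and 240 in NSL1 RNAi, 200, 226 and 275 in NSL2 RNAi, and 142, 90 and 102 in NSL3 RNAi. The log2 fold changes were 2.83 (SE 0.24, adjusted p = 4.57e-06), 2.53 (SE 0.20, adjusted p = 0.000188) and 1.90 (SE 0.31, adjusted p = 0.00139). Without library 2 of NSL3 RNAi the last was 2.12 (SE 0.28). By size of change *412* ranked 92 of 115 tested families under NSL1 RNAi, 37 of 110 under NSL2 RNAi and 75 of 104 under NSL3 RNAi.

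A different *412* insertion led in each group. In *white* RNAi it was insertion 634, with 19, 28 and 15 reads, or 42.5% of the family's reads (34.7 to 50.6%). This insertion had 7, 1 and 1 reads in NSL1 RNAi, 4, 2 and 5 in NSL2 RNAi, and 7, 2 and 6 in NSL3 RNAi. It fell in NSL1 RNAi (log2 fold change -2.34, SE 0.60, adjusted p = 0.00508) and in NSL2 RNAi (-1.99, SE 0.41, adjusted p = 0.00882), and was not called in NSL3 RNAi (-1.27, SE 0.54, adjusted p = 0.0605, -0.75, SE 0.39 without library 2, and -1.55, adjusted p = 0.0452 without library 1). Insertion 634 was named for leading *white* RNAi and passed the minimum mean only through it, so its fall is a description. Its normalized reads were 17.3 in *white* RNAi against 3.62 in NSL1 RNAi, and 18.5 against 4.06 in NSL2 RNAi. Insertion 289 led in NSL1 RNAi, with 1, 1 and 0 reads in *white* RNAi, 70, 134 and 78 in NSL1 RNAi, 61, 64 and 50 in NSL2 RNAi, and 0, 0 and 2 in NSL3 RNAi. Its log2 fold change of 6.16 (SE 0.40, adjusted p = 9.90e-07) was the largest of the member insertions tested in NSL1 RNAi, with a ratio of 196 to the 2 reads in *white* RNAi (counting interval 53.6 to 1623). Insertion 289 passed the minimum mean only through the knockdown, so this p-value is no support.

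Insertion 974 of *412* led in NSL2 RNAi, with 0, 1 and 0 reads in *white* RNAi, 34, 38 and 30 in NSL1 RNAi, 61, 45 and 72 in NSL2 RNAi, and 0, 2 and 2 in NSL3 RNAi. Insertion 600 led in NSL3 RNAi, with 0, 0 and 1 reads in *white* RNAi, 8, 2 and 13 in NSL1 RNAi, 1, 1 and 0 in NSL2 RNAi, and 49, 32 and 31 in NSL3 RNAi (log2 fold change 5.30, SE 0.44, adjusted p = 6.52e-05, ratio to the single read 185 with an interval of 32.5 to 7376). Again the minimum mean was passed only through the knockdown, and the p-value is no support. Insertion 764 had 40, 18 and 29 reads in NSL3 RNAi, at least 47.9-fold above the 0 reads of *white* RNAi. It had only 1, 0 and 1 reads in NSL1 RNAi and 0, 0 and 1 in NSL2 RNAi. The insertions that carried *412* in NSL3 RNAi were thus nearly unread in NSL2 RNAi, and those that carried it in NSL2 RNAi nearly unread in NSL3 RNAi, although the family sums of these groups were not called different.

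The *Stalker* families had few reads in *white* RNAi and their largest fitted changes in NSL1 RNAi. In NSL3 RNAi *Stalker2* rose, while *Stalker* and *Stalker4* stayed below the minimum mean. *Stalker* had 0, 1 and 4 reads in *white* RNAi, 233, 255 and 197 in NSL1 RNAi, 99, 116 and 78 in NSL2 RNAi, and 3, 4 and 3 in NSL3 RNAi. The log2 fold change was 7.06 (SE 0.51, adjusted p = 1.62e-06) in NSL1 RNAi, which ranked 4 of 115 families, and 5.69 (SE 0.58, adjusted p = 0.000540) in NSL2 RNAi. *Stalker* passed the minimum mean only through these knockdowns, so the p-values are no support for a rise. In NSL3 RNAi the ratio of pooled reads to *white* RNAi was 3.305 (95% counting interval 1.03 to 12.3), with no test.

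*Stalker2* had 8, 3 and 6 reads in *white* RNAi, 187, 280 and 212 in NSL1 RNAi, 104, 114 and 111 in NSL2 RNAi, and 44, 32 and 34 in NSL3 RNAi. It was the only *Stalker* family tested in all knockdowns, with log2 fold changes of 5.58 (SE 0.35, adjusted p = 6.69e-07), 4.37 (SE 0.36, adjusted p = 0.000201) and 3.21 (SE 0.41, adjusted p = 0.000530, and 3.38 without library 2 of NSL3 RNAi). *Stalker4* had 1, 0 and 0 reads in *white* RNAi, 30, 45 and 34 in NSL1 RNAi, 16, 18 and 33 in NSL2 RNAi, and 4, 4 and 3 in NSL3 RNAi. Its ratio to the single *white* RNAi read was 151 (26.6 to 6027) in NSL1 RNAi, 80.05 (13.9 to 3208) in NSL2 RNAi and 18.2 (2.64 to 782.5) in NSL3 RNAi, intervals that cover counting error only. *Stalker4* was called higher by limma in NSL1 RNAi (adjusted p = 3.71e-06) and in NSL2 RNAi (adjusted p = 0.000917). Both *Stalker2* and *Stalker4* passed the minimum mean only through the knockdown, so their p-values are no support for a rise.

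In NSL3 RNAi the leading *Stalker* and *Stalker2* insertions of the other knockdowns were unread or nearly so. *Stalker* insertion 1506 led its family in NSL1 and NSL2 RNAi, with 0, 0 and 1 reads in *white* RNAi, 76, 67 and 53 in NSL1 RNAi, 32, 27 and 20 in NSL2 RNAi, and 1, 1 and 0 in NSL3 RNAi. *Stalker* insertions 1516 and 1200 had 0 reads in *white* RNAi and in NSL3 RNAi, and each had 87 reads over the NSL1 RNAi libraries, at least 40.2-fold above *white* RNAi. *Stalker2* insertion 900 had 0 reads in *white* RNAi and in NSL3 RNAi, 40, 43 and 33 in NSL1 RNAi and 17, 27 and 29 in NSL2 RNAi, at least 53.6-fold and 29.1-fold above *white* RNAi. By contrast *Stalker2* insertion 7, which led in NSL3 RNAi, had 1, 0 and 0 reads in *white* RNAi, 7, 12 and 8 in NSL1 RNAi, 2, 1 and 2 in NSL2 RNAi, and 13, 10 and 5 in NSL3 RNAi. It was below the minimum mean and was not tested. *Stalker2* insertion 965 had 0, 1 and 0 reads in *white* RNAi, 34, 41 and 32 in NSL1 RNAi, 22, 23 and 13 in NSL2 RNAi, and 2, 0 and 2 in NSL3 RNAi.

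*Stalker4* was carried by a single insertion in each knockdown that had reads to speak of, and not by the same one. Insertion 1491 had 25, 35 and 23 reads in NSL1 RNAi, 76.1% of the family (67.3 to 83.2%), and 0, 1 and 5 in NSL2 RNAi. Insertion 1194 had 0, 4 and 1 reads in NSL1 RNAi and 8, 9 and 20 in NSL2 RNAi, 55.2% of the family (43.4 to 66.5%). Both had 0 reads in *white* RNAi and each had 2 reads over the NSL3 RNAi libraries.

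*Tabor* rose in NSL1 and NSL2 RNAi but was not called in NSL3 RNAi. It had 13, 9 and 13 reads in *white* RNAi, 113, 207 and 148 in NSL1 RNAi, 118, 130 and 92 in NSL2 RNAi, and 8, 13 and 8 in NSL3 RNAi. The log2 fold change was 4.06 (SE 0.30, adjusted p = 1.81e-06) in NSL1 RNAi and 3.44 (SE 0.31, adjusted p = 0.000288) in NSL2 RNAi. In NSL3 RNAi it was 0.40 (SE 0.36, adjusted p = 0.329), the smallest of the 104 families tested there, and without library 2 the family fell below the minimum mean. The interval of the NSL3 RNAi ratio of pooled reads, 1.37 (0.807 to 2.31), covers counting error only.

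*Tabor* insertion 996 held most of the family's *white* RNAi reads and changed little between groups. It had 11, 6 and 8 reads in *white* RNAi (71.4% of the family, 54.9 to 83.7%), 6, 5 and 5 in NSL1 RNAi, 8, 10 and 10 in NSL2 RNAi, and 4, 4 and 3 in NSL3 RNAi. The groups overlap after scaling in all 3 tables. Insertion 271 had 0 reads in *white* RNAi, 23, 85 and 55 in NSL1 RNAi, 58, 73 and 45 in NSL2 RNAi, and 1, 0 and 0 in NSL3 RNAi. It was at least 75.4-fold higher in NSL1 RNAi and at least 70.1-fold higher in NSL2 RNAi than in *white* RNAi. Insertion 189 had 0, 1 and 1 reads in *white* RNAi, 61, 79 and 57 in NSL1 RNAi, 31, 28 and 29 in NSL2 RNAi, and 1, 3 and 0 in NSL3 RNAi. In *white* RNAi, *Tabor* insertion 996 and *412* insertion 634 together held 33.3% of the 261 reads of all members.

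**Figure D3:**
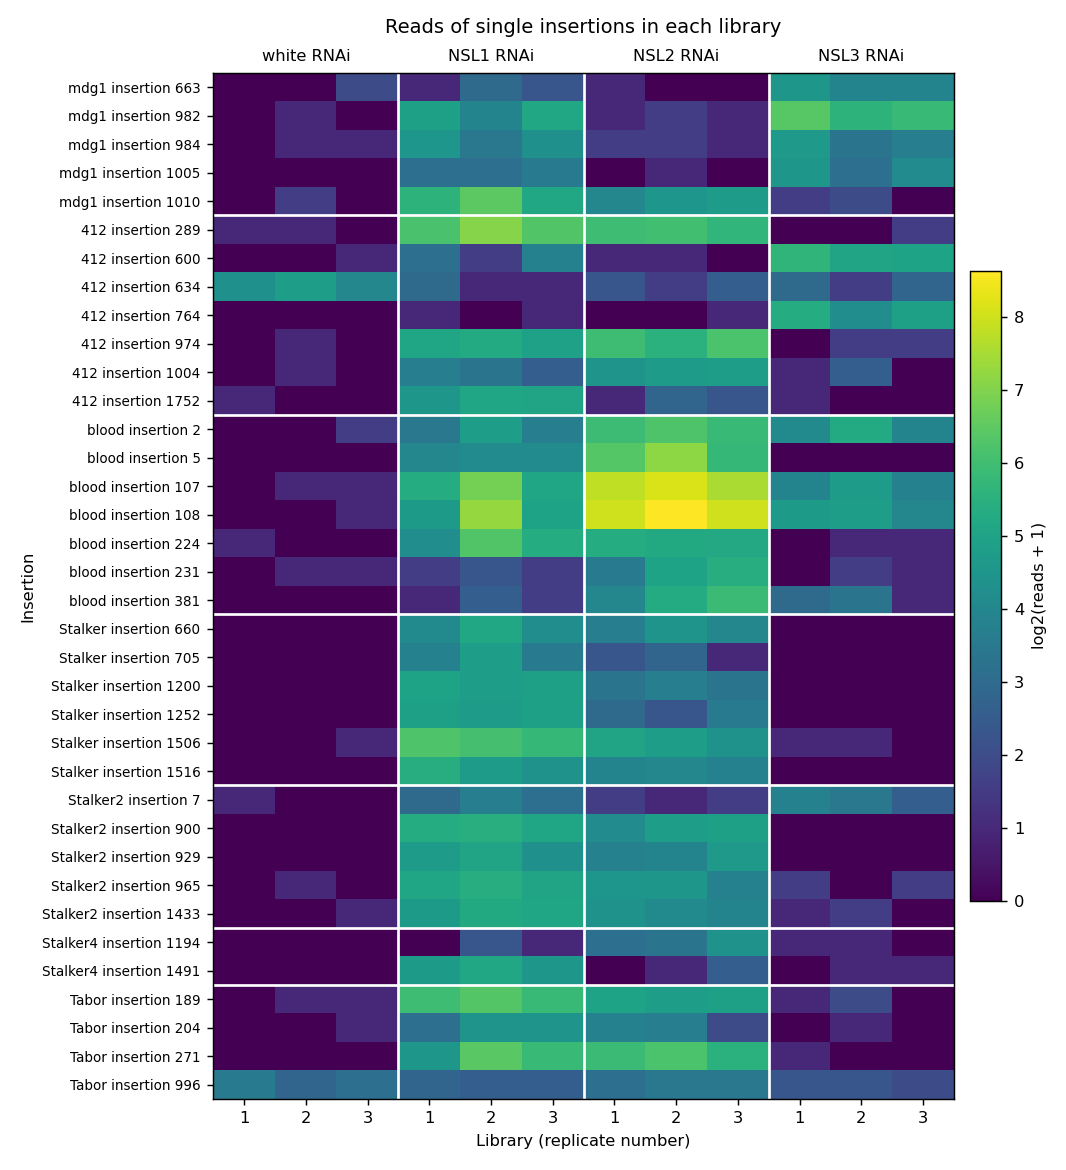
Recovered reads, as log2(reads + 1), of the 36 insertions that lead a group, are among the highest of their family or were tested and had at least 40 reads in all, in rows by family, across the 12 libraries in columns. *412* insertion 600 is bright in NSL3 RNAi (49, 32 and 31 reads) and dark in NSL2 RNAi (1, 1 and 0), and *412* insertion 289 the reverse (0, 0 and 2 against 61, 64 and 50).

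When every row was tested singly, 23 member insertions rose and 1 fell of 24 tested in NSL1 RNAi. In NSL2 RNAi 16 rose and 1 fell of 17, and in NSL3 RNAi 8 rose and 0 fell of 9 by limma, with 1 lower at an unadjusted p under 0.05 and 0 by edgeR or DESeq2, while 7944, 7951 and 7959 insertions were below the minimum mean. Of all transposon insertions tested, 98.1%, 82.6% and 93.7% rose, and of all features 38.2%, 12.2% and 32.2%. Lower calls were rare among transposon insertions, 0.47% in NSL1 RNAi and 0.294% in NSL2 RNAi. Apart from *412* insertion 634, none of the tested members reached the minimum mean in *white* RNAi, so each of the others was tested because its knockdown value was high and had to differ. *412* insertion 634 in turn passed it only through *white* RNAi, so its fall is no support either. Without library 3 of NSL3 RNAi, 5 of 6 insertions tested were called there. Lists of insertions with at least 3 reads were compared between groups as shares of each list. NSL2 and NSL3 RNAi shared 38 insertions, 40% of the NSL2 RNAi list and 51.4% of the NSL3 RNAi list. NSL1 RNAi shared 79 with NSL2 RNAi (48.5% and 83.2%) and 59 with NSL3 RNAi (36.2% and 79.7%). The matching shares over all transposon insertions were not computed, so these overlaps are a description and no result about the members.

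**Figure D4:**
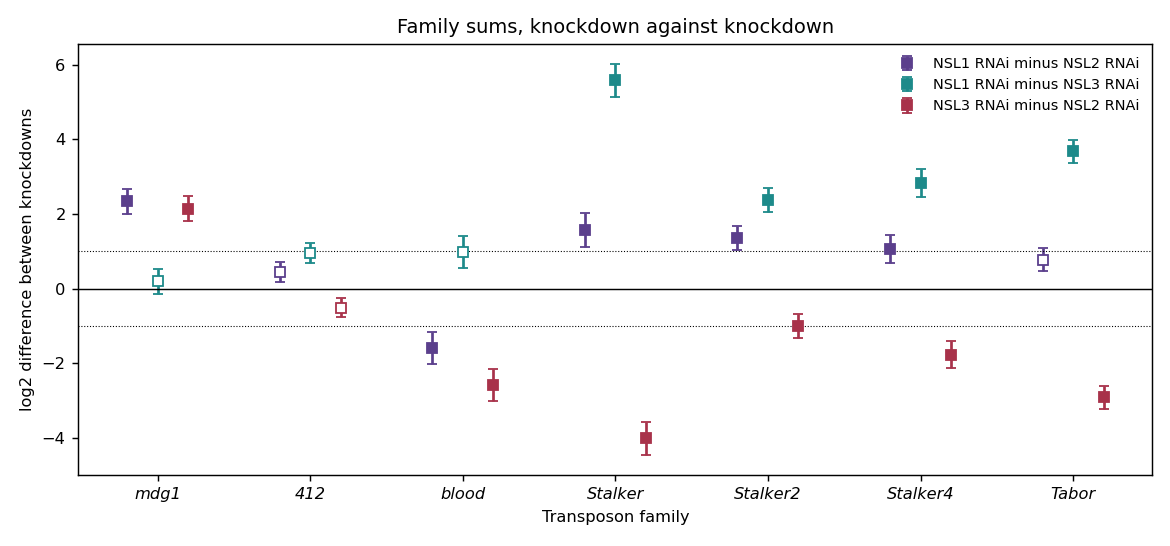
The log2 difference of each family sum between knockdowns (squares) with its standard error (bars), from the fit of all 12 libraries. Filled squares were called, open squares were not, and dotted lines mark a 2-fold difference. *blood* is the only family below 0 for NSL1 minus NSL2 RNAi (-1.59), and *mdg1* the only one above 0 for NSL3 minus NSL2 RNAi (2.14).

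The knockdowns were then compared with each other directly, with all 12 libraries in 1 fit and 1 set of size factors. Between NSL1 and NSL2 RNAi, 4 families were higher in NSL1 RNAi and 1 in NSL2 RNAi, where 84.1% of all transposon families and 43.3% of all features differed. *mdg1* (log2 difference 2.35, SE 0.33), *Stalker* (1.57, SE 0.45), *Stalker2* (1.36, SE 0.32) and *Stalker4* (1.06, SE 0.37) were higher in NSL1 RNAi. *blood* was higher in NSL2 RNAi (-1.59, SE 0.43, adjusted p = 0.00468), the only family of the 113 tested with that call. *412* (0.45, SE 0.26, adjusted p = 0.135) and *Tabor* (0.77, SE 0.31, adjusted p = 0.0362) were not called. The *Stalker4* call was lost without library 2 of NSL1 RNAi (0.87, adjusted p = 0.0819), library 1 of NSL2 RNAi (1.01, adjusted p = 0.0506) or library 2 of NSL2 RNAi (0.91, adjusted p = 0.0671).

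Between NSL1 and NSL3 RNAi, 4 families were higher in NSL1 RNAi and 0 in NSL3 RNAi by limma, with 0 at an unadjusted p under 0.05 and 0 by edgeR or DESeq2, where 57.5% of all transposon families and 12.1% of all features differed. These were *Stalker* (log2 difference 5.58, SE 0.45), *Tabor* (3.68, SE 0.31), *Stalker4* (2.83, SE 0.37) and *Stalker2* (2.37, SE 0.32). *Stalker* and *Stalker4* had means of only 4.29 and 4.74 scaled reads in NSL3 RNAi. They passed the minimum mean only through NSL1 and NSL2 RNAi, so their differences from NSL3 RNAi are a description and no support. *mdg1* (0.21, SE 0.33, adjusted p = 0.650), *412* (0.95, SE 0.26, adjusted p = 0.0149) and *blood* (0.99, SE 0.43, adjusted p = 0.0855) were not called. Without library 1 of NSL1 RNAi *412* (1.06) and *blood* (1.35, adjusted p = 0.0398) were called too. *412* was also called without library 3 of NSL1 RNAi (1.04) or library 1 of NSL3 RNAi (1.17).

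Between NSL3 and NSL2 RNAi, *mdg1* was higher in NSL3 RNAi (log2 difference 2.14, SE 0.33, adjusted p = 0.000147) and 5 families were higher in NSL2 RNAi, where 48.7% of all transposon families and 36.7% of all features differed. The 5 were *Stalker* (-4.01, SE 0.45), *Tabor* (-2.90, SE 0.31), *blood* (-2.58, SE 0.43), *Stalker4* (-1.77, SE 0.37) and *Stalker2* (-1.005, SE 0.32, adjusted p = 0.0137). For *Stalker* and *Stalker4*, which passed the minimum mean only through NSL1 and NSL2 RNAi, these differences are again a description. *Stalker2* was not called without library 1 of NSL2 RNAi (-0.90) or without library 2 of NSL3 RNAi (-0.80). The other 5 calls were kept without library 2 of NSL3 RNAi, with *mdg1* at 2.52 and *blood* at -2.74.

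For single insertions the same 3 comparisons were chosen after their values had been seen, and 21 insertions were tested. Between NSL1 and NSL2 RNAi 10 were higher in NSL1 RNAi and 5 in NSL2 RNAi, where 69.7% of all insertions and 44.7% of all features differed. Without library 2 of NSL1 RNAi these counts were 4 and 5 of 19. Between NSL1 and NSL3 RNAi 15 were higher in NSL1 RNAi and 2 in NSL3 RNAi (57.8% and 14.9% of all). Between NSL3 and NSL2 RNAi 3 were higher in NSL3 RNAi and 17 in NSL2 RNAi (65% and 38.6% of all). Apart from *blood* insertions 2, 107 and 108, which had a mean above 10 scaled reads in every knockdown, each of these insertions passed the minimum mean through the groups where it was high, so the counts describe the insertions tested and are no support for a difference. The insertions named next were chosen for leading a group, and their differences are a description with no test. *412*, whose family sums were not called different between NSL3 and NSL2 RNAi (-0.51, SE 0.26, adjusted p = 0.0951), held insertions that lay in opposite directions. Insertion 600 had a log2 difference (NSL3 minus NSL2 RNAi) of 4.96 (SE 0.56), insertion 289 of -5.03 (SE 0.54) and insertion 974 of -4.48 (SE 0.50). In *mdg1* the difference was 5.23 (SE 0.43) for insertion 982 and -2.91 (SE 0.60) for insertion 1010.

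The other LTR families were described by counts and medians over fixed lists. In NSL2 RNAi the median log2 fold change was 4.28 over the 7 families, 5.29 over 11 germline LTR families such as *Burdock* and *HMS-Beagle*, of which 11 rose, 1.93 over 11 soma-active gypsy-type families such as *gypsy* and *ZAM*, of which 7 rose, and 1.98 over all 110 families. In NSL1 RNAi the medians were 5.13, 6.20, 3.55 and 3.69, and 11 of 11 families rose in either list. In NSL3 RNAi they were 3.21 over the 5 tested, 2.73 over 10 germline families, 2.38 over 11 soma-active families and 2.35 over all 104 families, with 10 of 10 and 10 of 11 rising. The tested numbered gypsy and invader families rose in 16 of 16 cases under NSL1 RNAi (median 3.80), 13 of 15 under NSL2 RNAi (2.03) and 14 of 15 under NSL3 RNAi (2.31). Since most of the 7 passed the minimum only through the knockdown, their medians are a description and carry no test.

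Of the piRNA pathway genes tested, 15 of 41 fell and 2 rose in NSL1 RNAi and 24 of 40 fell and 2 rose in NSL3 RNAi, where 19.9% and 14.2% of all features fell. In NSL2 RNAi 0 of 40 genes tested rose or fell by limma, edgeR or DESeq2, where 1.15% of all features fell, although without the fold minimum 2 were higher and 13 lower, and at an unadjusted p under 0.05 2 and 16. Of 10 genes of nuclear silencing, 1 fell in NSL1 RNAi and 4 in NSL3 RNAi, and *piwi*, which guides silencing in the nucleus, had log2 fold changes of 0.29 (SE 0.05), -0.12 (SE 0.05) and -0.78 (SE 0.13) in NSL1, NSL2 and NSL3 RNAi, none of them past the fold minimum. Of the genes for transcription of piRNA clusters, 5 of 10 fell and 1 rose in NSL1 RNAi and 6 of 9 fell in NSL3 RNAi. *rhi*, a heterochromatin protein of the clusters, had log2 fold changes of -1.62 (SE 0.15), -0.48 (SE 0.08) and -1.86 (SE 0.28) in NSL1, NSL2 and NSL3 RNAi. Of 10 genes of the ping-pong cycle and nuage, 4 fell in NSL1 RNAi, and in NSL3 RNAi 7 fell and 1 rose. *AGO3*, a slicer of the ping-pong cycle, had log2 fold changes of -2.55 (SE 0.18), -0.40 (SE 0.08) and -1.69 (SE 0.26). Of 11 processing and maturation genes, 5 fell and 1 rose in NSL1 RNAi and 7 fell and 1 rose in NSL3 RNAi. *zuc*, the nuclease of piRNA processing, was at -1.43, -0.05 and -1.59. Of the 7 NSL complex genes, 2 fell in NSL1 RNAi, 0 in NSL2 RNAi and 1 in NSL3 RNAi. In NSL2 RNAi without the fold minimum, 0 of the 7 were higher and 3 lower by limma, 7 were lower at an unadjusted p under 0.05, and edgeR and DESeq2 called 0.

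Markers of other cell types also rose in the knockdowns. Of all features, 33.5%, 10.2% and 31% rose in NSL1, NSL2 and NSL3 RNAi, and 19.9%, 1.15% and 14.2% fell. Of 10 germline markers, 8 fell in NSL1 RNAi and 9 in NSL3 RNAi. In NSL2 RNAi 0 were called by limma, edgeR or DESeq2 (5 lower and 1 higher at an unadjusted p under 0.05). Of these markers 2, *vas* and *aub*, are also among the piRNA pathway genes above. The germline markers had summed levels of 156759 to 161161 scaled reads in *white* RNAi against 32351 to 38452 in NSL1 RNAi, 121024 to 136487 in NSL2 RNAi and 30759.8 to 91560.2 in NSL3 RNAi. Of 12 follicle and sheath cell markers, 12 rose in NSL1 RNAi, 2 of the 9 tested in NSL2 RNAi and 10 of the 11 tested in NSL3 RNAi, and none was at 0 in any group. Their summed level was 986 to 1643 scaled reads in *white* RNAi against 21791 to 24828 in NSL1 RNAi, 1616 to 2623 in NSL2 RNAi and 13824 to 25721 in NSL3 RNAi. Of the tested muscle markers 14 of 15, 3 of 14 and 13 of 14 rose. Their sum ranged over 8660.0 to 9625 scaled reads in *white* RNAi against 256579.9 to 323532 in NSL1 RNAi, 9022 to 11138 in NSL2 RNAi and 276513 to 598567 in NSL3 RNAi. Of the tested hemocyte markers 11 of 12, 2 of 9 and 13 of 14 rose, and *He* and *lz* had 0 reads in *white* RNAi. The hemocyte sum was 9389 to 11558 scaled reads in *white* RNAi and 8922 to 10741 in NSL2 RNAi. It was 162259 to 179662 in NSL1 RNAi and 127738 to 260278 in NSL3 RNAi. Of 14 eggshell and yolk markers, genes of late follicle cells, 8, 14 and 7 rose. Their summed level was 17523 to 73448 scaled reads in *white* RNAi against 122969 to 185276 in NSL1 RNAi, 360419.7 to 641039.9 in NSL2 RNAi and 110614 to 197045 in NSL3 RNAi. Of the tested fat body markers 8 of 8, 1 of 3 and 6 of 6 rose, and of the tested neuron markers 5 of 5, 1 of 3 and 4 of 4. In NSL2 RNAi the muscle sum was at most 11138 scaled reads and the eggshell and yolk sum was above that of every other library. The part of these cell types in the member reads was not tested for any knockdown.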

How the data were processed

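Total RNA depleted of ribosomal RNA was sequenced in 12 ovary libraries, 3 for each of *white*, NSL1, NSL2 and NSL3 RNAi. Per the study's methods, reads were aligned with STAR within piPipes to dm3. featureCounts or eXpress is named for counting, and whether counting used strand is not given in the sources used here. The submitters' processing notes name DESeq2. The authors deposited 3 tables, 1 per knockdown with the *white* RNAi libraries, of 72525 rows each (genes, single transposon insertions, other repeats and piRNA clusters). The deposited values are a signal, reads divided by 1 size factor per library. The methods state spike-in size factors, and no such row is in the tables used here. The methods also pair the NSL1 and NSL3 knockdowns with virgin controls, while the *white* RNAi columns match the label of the other control in all tables. The virgin control was not analysed here. Stock numbers are those of the labels. For *nsl3* the study's methods name a different line, and which was used is not settled by the sources used here. Columns of the authors' own log2 fold changes and p-values were not used, and 0 other value columns were left out. Only replicate 1 of each group has a label of its own, and the other columns were placed by group name.

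Whole reads were recovered for 100% of 1305450 values (tolerance 1e-06 reads), and 0 *white* RNAi reads differed between tables. Insertions were summed by family. Main tests used limma 3.58.1 (R 4.3.3) with a mean trend on log2(value + 1), for a mean of at least 10 over the table, with Benjamini-Hochberg adjustment over all features, calling at an adjusted p below 0.05 and a fold change above 2. Knockdowns were compared in 1 fit of 12 libraries with median-of-ratios size factors over all rows. For single insertions this fit was added after values had been seen. As alternatives, edgeR 4.0.16 and DESeq2 1.42.0 were run on the recovered reads, where over all features edgeR called 4855, 954 and 3944 in NSL1, NSL2 and NSL3 RNAi, DESeq2 4689, 919 and 3840 and limma 4975, 934 and 4118. The limma steps were tested on simulated data. Other alternatives changed the pseudocount, filter, scaling, fold minimum, libraries and the summed insertions.

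Named insertions were the 3 of highest mean per family, the 3 with the largest called change per knockdown, and those that led a family in a group. The last, and any other insertion named, were chosen after values were seen. Other genes came from fixed lists. The members and lists were chosen with earlier results of these data known. *arx* and CG3893 in the nuclear list are 1 gene. The study describes separate crosses as replicates, and p-values measure the spread between these libraries. Wilson (95%) and exact counting intervals and the floor of 3 reads over a group cover counting error only, since PCR reads without molecular identifiers are not independent molecules. An exact permutation test of 3 against 3 cannot go below p = 0.1 and was not used. Python 3.11.15, pandas 2.3.3 and scipy 1.17.1 were used for tables.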

Additional observations from a re-analysis of the deposited data

Results flagged for a closer look

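The effect of a knockdown on the members differed from that of another knockdown in the contrasts below. For families each was tested directly in 1 limma fit of all 12 libraries. *Stalker* and *Stalker4* passed the minimum mean only through NSL1 and NSL2 RNAi, and their differences from NSL3 RNAi are a description only. For single insertions the values come from the same fit and are a description only, since the insertions were chosen for leading a group and, apart from *blood* 2 and 108, passed the minimum mean through the groups where they were high. Values are log2 differences, and the *white* RNAi controls are shared. Between NSL1 and NSL2 RNAi, the families *mdg1* (2.35), *Stalker* (1.57), *Stalker2* (1.36) and *Stalker4* (1.06) were higher in NSL1 RNAi and *blood* (-1.59) in NSL2 RNAi. Between NSL1 and NSL3 RNAi, *Stalker* (5.58), *Tabor* (3.68), *Stalker4* (2.83) and *Stalker2* (2.37) were higher in NSL1 RNAi. Between NSL3 and NSL2 RNAi, *mdg1* (2.14) was higher in NSL3 RNAi, and *Stalker* (-4.01), *Tabor* (-2.90), *blood* (-2.58), *Stalker4* (-1.77) and *Stalker2* (-1.005) in NSL2 RNAi.

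Among the leading insertions of each family, NSL1 minus NSL2 RNAi was 3.72 for *mdg1* 982, 1.65 for *mdg1* 1010, 2.34 for *412* 600, 1.62 for *Stalker* 1506, 1.01 for *Stalker2* 900 and 1.46 for *Tabor* 189. It was -1.67 for *blood* 2 and -2.23 for *blood* 108. *mdg1* 1010 (1.25), *Stalker2* 900 (0.90) and *Tabor* 189 (1.29) no longer met the calling thresholds without library 2 of NSL1 RNAi. Nor did they without library 1 or 2 of NSL2 RNAi (*mdg1* 1010, 1.58 and 1.66), library 1 of NSL1 or NSL2 RNAi (*Stalker2* 900, 0.95 and 0.92), and library 2 or 3 of NSL2 RNAi (*Tabor* 189, 1.38 and 1.36).

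NSL1 minus NSL3 RNAi was 4.56 for *mdg1* 1010, 5.998 for *412* 289, 4.05 for *412* 974, 5.42 for *Stalker* 1506, 5.08 for *Tabor* 189 and 5.34 for *Tabor* 271. It was -1.51 for *mdg1* 982 and -2.62 for *412* 600. *mdg1* 982 no longer met them without library 2 of NSL1 RNAi (-1.16) or library 1 of NSL3 RNAi (-1.25). NSL3 minus NSL2 RNAi was 5.23 for *mdg1* 982 and 4.96 for *412* 600. It was -2.91 for *mdg1* 1010, -5.03 for *412* 289, -4.48 for *412* 974, -3.15 for *blood* 108, -3.79 for *Stalker* 1506, -3.62 for *Tabor* 189 and -5.27 for *Tabor* 271. *Stalker2* 900 had 0 reads in NSL3 RNAi. Its fitted differences from NSL1 RNAi (5.45) and NSL2 RNAi (-4.44) depend on the added 1, and on reads it was at least 33.2-fold and at least 16.3-fold higher than in NSL3 RNAi. The cause of these differences was not tested.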

How the results depend on the processing

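Counts of families called kept within 1.5 times the reported count under every alternative run, as did counts by edgeR and DESeq2. With 1 library left out the families called were 7 in NSL1 RNAi, 6 to 7 in NSL2 RNAi and 4 in NSL3 RNAi, and the insertions called 20 to 26, 14 to 20 and 5 to 9 (5 without library 3 of NSL3 RNAi). Between knockdowns (NSL1 and NSL2, NSL1 and NSL3, NSL3 and NSL2) they were 4 to 5, 4 to 6 and 5 to 6 families and 9 to 13, 13 to 19 and 20 to 23 insertions, with 9 without library 2 of NSL1 RNAi. Counts of insertions followed the filter, since it sets how many are tested. With no filter 92, 47 and 38 insertions were called in NSL1, NSL2 and NSL3 RNAi and 69, 71 and 60 between knockdowns. With a minimum mean of 5, 26 and 13 were called in NSL2 and NSL3 RNAi and 26, 29 and 35 between knockdowns. With a minimum of 50 they were 1 in NSL1 RNAi, 3 in NSL2 RNAi and 2, 1 and 2 between knockdowns, and no member could be tested in NSL3 RNAi.

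The direction turned for *mdg1* between NSL1 and NSL3 RNAi without library 2 of NSL3 RNAi (-0.17, range with 1 library left out to 0.51), and for *Tabor* insertion 271 between NSL1 and NSL2 RNAi under scaling by library total (-0.0227) and without library 2 of NSL1 RNAi (-0.37) or library 3 of NSL2 RNAi (-0.20, range to 0.56). None of these was called, and the cause was not tested. Of the single values under alternatives, 1594 kept direction and call, 14 gained a call and 26 lost one. Family calls between knockdowns that changed were *Stalker4*, NSL1 against NSL2 RNAi (called in 11 of 16 alternatives), *Stalker2*, NSL3 against NSL2 RNAi (12 of 17), and *412* and *blood*, NSL1 against NSL3 RNAi (5 and 3 of 17), and *Tabor*, NSL1 against NSL2 RNAi (1 of 17, without the fold minimum). Scaling over annotated genes moved the median of all features by 0.15 in NSL1 RNAi and 0.11 in NSL3 RNAi. Scaling by library total moved it by -0.10 between NSL1 and NSL2 RNAi and -0.18 between NSL3 and NSL2 RNAi, where the share of calls that were higher went from 75.6% to 64.1%.

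Libraries with the same replicate number did not deviate together (correlations from -0.27 to 0.20 for the knockdown and *white* RNAi pairs), so they share only a number. With the replicate block 7, 7 and 4 families and 24, 17 and 8 insertions were called in NSL1, NSL2 and NSL3 RNAi. Between knockdowns 5, 4 and 6 families and 14, 17 and 20 insertions were called. Of the members, 7543 insertions had 0 reads in these libraries, and *white* RNAi values rest on 0 to 28 reads a library for any insertion.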
